A study of Mus musculus with 3 samples.

Results

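Cation-chloride cotransporters are membrane proteins of the Slc12a family that carry chloride together with sodium or potassium. In neurons Slc12a2 (NKCC1) brings chloride in and Slc12a5 (KCC2) takes it out, so their balance sets whether the GABA-gated chloride channel depolarizes or hyperpolarizes the cell. Slc12a2 is known to prevail in immature neurons and Slc12a5 to rise as neurons mature. The Wnk kinases sense chloride and activate Stk39 (SPAK), which phosphorylates both kinds of carrier, turning sodium-dependent import on and potassium-dependent export off. The genes described here are 8, set by a list of names with no threshold on their values, though with earlier results of these data known: the carriers Slc12a2, Slc12a4, Slc12a5, Slc12a7 and Slc12a9 and the kinases Wnk1, Wnk3 and Stk39. They were read from 9 probe sets whose only symbol was one of these names, of 22180 genes with a probe set of their own and 41345 probe sets in all. RNA levels were measured; neither chloride nor protein nor the polarity of GABA responses was.

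The samples are 3 biological replicate cultures of wild-type CD-1 mouse medial ganglionic eminence (MGE), the embryonic region that makes many GABA-releasing interneurons of the forebrain, and they form 1 group. Tissue from embryonic day 13 was plated at a density of 59000 cells/cm2, grown on laminin and poly-D-lysine in Neurobasal medium with 40 ng/ml FGF2, 2% B27 and 500 µM glutamine, received AraC, a nucleoside analogue that kills dividing cells, at 1 µM for 24 h from day 5, had its medium changed 3 times at intervals of 2 h, and was kept for 2 more days. All 3 cultures had this same treatment, and no other condition was compared, so no level is given as raised or lowered by a treatment. From 100 ng of total RNA per culture, 1 array gave 1 log2 signal per probe set.

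The label of purified interneurons was set against marker genes. All 7 GABA neuron markers and all 8 neuron markers were above background, Gad1 (10.23 ± 0.53) and Tubb3 (11.79 ± 0.16) among them. So were all 6 astrocyte, 6 progenitor, 6 cycling and 7 measured oligodendrocyte lineage markers, among them Aqp4 (8.20 ± 0.61), Nes (9.35 ± 0.19), Mki67 (10.04 ± 0.19) and Pdgfra (11.45 ± 0.06). Gfap (8.51, 6.64 and 8.08 in cultures 1, 2 and 3), Pax6 and Mog among these did not pass with a margin of 1 log2 unit. All 7 vascular and meningeal markers and 3 of 6 microglial markers were above background too, but none of either list was with that margin. Of all 20751 genes tested, 63.4% were above background and 47.6% with the margin. Of 5 measured choroid plexus and ependyma markers, Otx2 (8.74 ± 0.31) and Foxj1 (7.43 ± 0.50) were above background, Foxj1 not with the margin. The choroid plexus genes Ttr (6.81 ± 0.61), Kl (6.03 ± 0.09) and Folr1 (6.42 ± 0.10) were not above background. Each array measured all cells of a culture, so which cells carried a signal cannot be told, and fewer cells of a type and less RNA per cell cannot be told apart.

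All 8 cotransporter and kinase genes gave signal above background, where 63.4% of all 20751 genes tested did. Background was a line at 6.26 log2 units, the 95th percentile of the probe sets of sensory receptor genes (olfactory, vomeronasal, bitter taste), and a gene was above it when limma's 1-sided moderated test gave an adjusted p under 0.05. With a margin of 1 log2 unit over the line, 7 of the 8 passed, against 47.6% of all genes. The count of 8 is a description, since the names were listed with such results in view and 4 measured relatives outside the list (Slc12a1, Slc12a3, Slc12a8 and Wnk4) did not pass. The binding strength of probe sets varies, so levels are read against the line and between cultures, never between genes. Values are log2 signal, and ± gives the SD (n = 3 cultures).

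**Figure D1:**
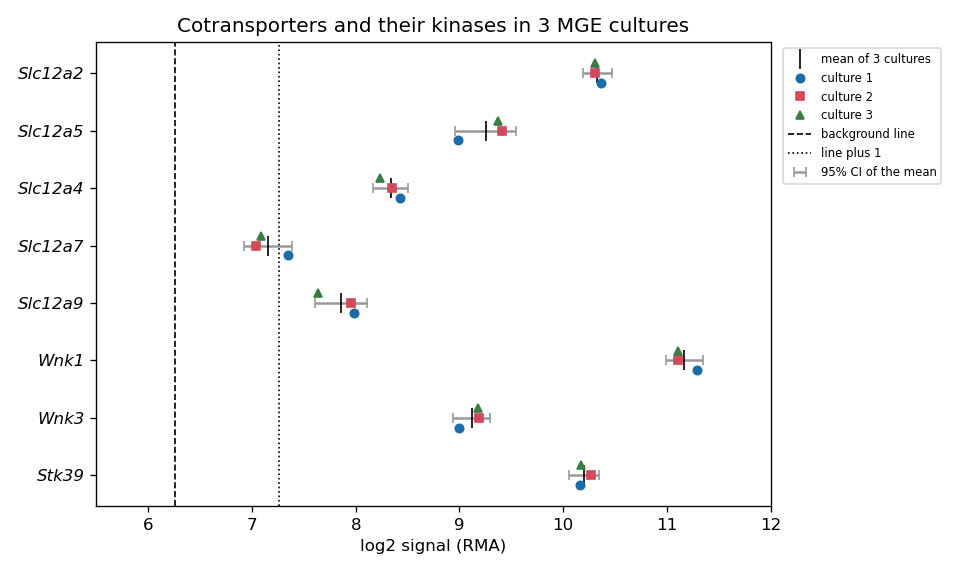
Log2 signal (x axis) of the 8 genes (rows) in culture 1 (circles), 2 (squares) and 3 (triangles), with the mean (tick) and its 95% confidence interval from limma (grey bar). The dashed line is background at 6.26 and the dotted line lies 1 log2 unit above it. All points lie right of the dashed line, and only Slc12a7 has points left of the dotted one.

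Slc12a2, the sodium-potassium-chloride importer, read 10.37, 10.31 and 10.31 in cultures 1, 2 and 3. The cultures lay within 0.06 log2 units of each other, and only 7.78% of genes above background had a smaller SD than its 0.03. The mean of 10.33 (95% confidence interval 10.19 to 10.47) was 4.07 log2 units above the line, with an adjusted p of 1.37e-06 in limma.

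Slc12a5, the potassium-chloride exporter of neurons, read 8.98, 9.41 and 9.37. Culture 1 was the low one, and cultures 2 and 3 differed by less than 0.1 log2 units. The mean of 9.25 ± 0.24 (95% confidence interval 8.96 to 9.55) lay 2.99 log2 units above the line, with an adjusted p of 1.13e-05 in limma. Its SD was the largest of the 8 genes, and 84.5% of genes above background had a smaller one.

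The gene of Slc12a5 has 2 start sites in the RefSeq promoter table (GRCm38.p6), known as the starts of its KCC2a and KCC2b forms, 7142 bases apart. The array holds 1 probe set for the gene, so the signal is not split between them. Both windows are shown because transcription factors known to act on this gene were measured on the same arrays, Usf1 and Usf2, which bind the E-box CACGTG, and Egr4. Each window runs from 250 bases before to 50 bases after the start, on the plus strand, and capitals mark an E-box. The upstream window is chr2:164960596-164960895 and the downstream one chr2:164967738-164968037.
Slc12a5 upstream start: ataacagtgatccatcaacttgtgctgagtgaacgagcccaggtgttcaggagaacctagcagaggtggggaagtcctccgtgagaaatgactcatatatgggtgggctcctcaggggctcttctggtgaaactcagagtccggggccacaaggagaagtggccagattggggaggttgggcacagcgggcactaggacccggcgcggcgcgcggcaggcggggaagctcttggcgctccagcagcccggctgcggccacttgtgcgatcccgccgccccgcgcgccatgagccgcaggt
Slc12a5 downstream start: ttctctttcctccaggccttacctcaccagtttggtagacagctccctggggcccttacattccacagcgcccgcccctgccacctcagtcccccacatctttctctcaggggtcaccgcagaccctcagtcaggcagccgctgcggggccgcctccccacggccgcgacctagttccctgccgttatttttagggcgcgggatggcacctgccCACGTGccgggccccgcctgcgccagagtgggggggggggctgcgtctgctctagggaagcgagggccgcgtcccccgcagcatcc

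The downstream window held 1 E-box, whose first base is 36 bases before the start, and the upstream window held none. The E-box reads the same on both strands, and 7.15% of all 32851 promoter windows in the table held it. An Egr motif, GCGNGGGCG, searched on both strands, was in neither window and in 5.55% of all windows. Windows were found for 7 of the 8 genes, 9 windows in all, and Slc12a2 is named only. None of the 9 windows held the Egr motif. Among the other genes Slc12a9 and Slc12a7 had an E-box, the latter in 2 windows that start 37 bases apart and share the same site. The 3 sites are shown with 10 bases on each side, written in the direction of transcription, so that the letters around the E-box can be compared.
Slc12a5: ggcacctgccCACGTGccgggccccg
Slc12a7: caggtgaggtCACGTGgcgggcaagg
Slc12a9: acccgagacgCACGTGgaacggtttg

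A match is a description of letters and not a bound site. Of the factors, Usf1 (7.88 ± 0.07) and Usf2 (8.91 ± 0.10) were above background. Egr4 (6.66 ± 0.14) passed (adjusted p = 0.00452 in limma), though not without culture 2 (0.0695), and it did not pass with a margin of 1. Rest, a repressor of neuronal genes known to act on Slc12a5, was above background at 7.49 ± 0.11.

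Of the other potassium-chloride exporters, Slc12a4 (KCC1), the widely expressed one that serves cell volume, read 8.42, 8.35 and 8.24. Culture 1 was the highest and culture 3 the lowest, and all 3 lay over 1 log2 unit above the line (adjusted p = 6.18e-06 in limma). That is the higher of its 2 probe sets. The other one read 6.06, 5.94 and 6.10, below the line in every culture, and with the mean of both sets the level was 7.18 and still above background.

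Slc12a7 (KCC4), also an exporter of many tissues, read 7.35, 7.03 and 7.09. It was the nearest to the line, 0.90 log2 units above it (adjusted p = 0.000359 in limma), and was high in culture 1. Its call was lost with the line at the 99th percentile, 7.10 (adjusted p = 0.502), where 49.9% of all genes passed, and with a line of 7.27 from other gene families (adjusted p = 1), where 47.4% did. The other 7 genes passed at both lines.

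Slc12a9, a family member first described as a protein that interacts with the sodium-potassium-chloride carrier, read 7.99, 7.96 and 7.63. Culture 3 was the low one, and the mean of 7.86 lay 1.60 log2 units above the line (adjusted p = 5.95e-05 in limma).

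Among the kinases, Wnk1, the widely expressed member, read 11.29, 11.11 and 11.11. Wnk3, a member known from brain, read 9.00, 9.18 and 9.18. In Wnk1 culture 1 was the high one and in Wnk3 the low one, with cultures 2 and 3 within 0.01 log2 units of each other in both. Both passed, 4.91 and 2.86 log2 units above the line (adjusted p = 1.37e-06 and 3.01e-06 in limma). Stk39, the kinase downstream of both, read 10.16, 10.27 and 10.17, with an SD of 0.06 and a mean 3.94 log2 units above the line (adjusted p = 1.37e-06).

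**Figure D2:**
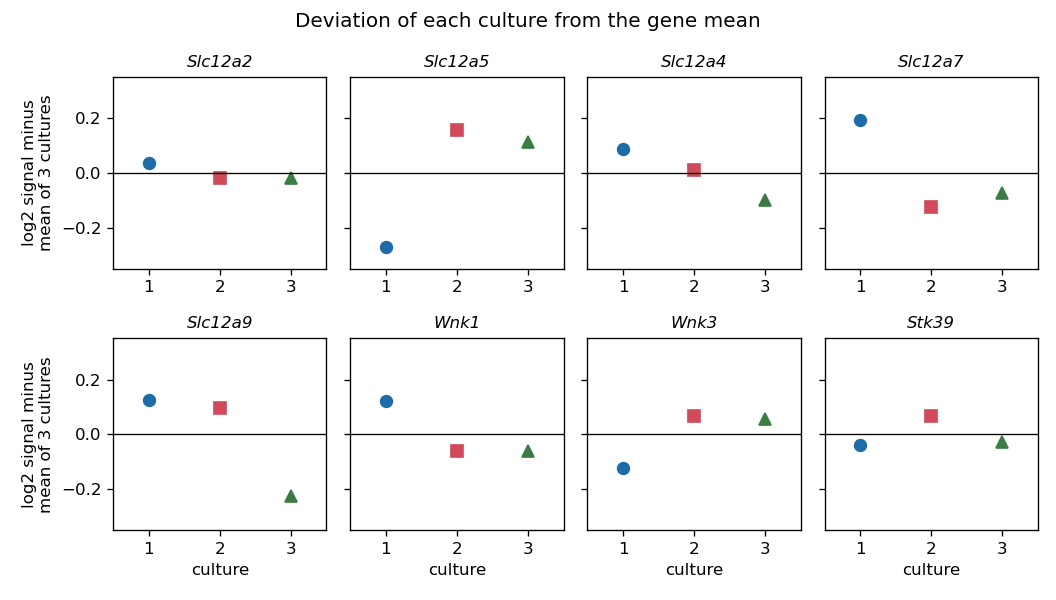
Log2 signal of each culture minus the gene's mean over the 3 cultures (y axis) for each of the 8 genes, by culture (x axis: 1 circle, 2 square, 3 triangle). Slc12a5 and Wnk3 were lowest in culture 1, and Slc12a7 and Wnk1 were highest there. Slc12a2 stayed within 0.06 log2 units.

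The 8 genes had their lowest values in different cultures. Culture 1 was the lowest for 3 of them (Slc12a5, Wnk3 and Stk39), culture 2 for 3 and culture 3 for 2. Over all genes above background, culture 1 was the lowest for 43.7%, culture 2 for 24.9% and culture 3 for 31.4%. Culture 1 was the highest for the other 5 of the 8 (4 with each array centred on its median), and for 32.4% of all genes above background. With the mean of both Slc12a4 probe sets, culture 2 was the lowest for 4 genes and culture 3 for 1. The median SD of the 8 was 0.11 log2 units, against 0.12 for all genes above background, and 5 of the 8 lay under that median. With each array centred on its median, Slc12a2 and Wnk1 were lowest in culture 3 in place of culture 2, while Slc12a5, Wnk3 and Stk39 were still lowest in culture 1.

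Over all cells of a culture, the balance of exporter to importer RNA can be followed from culture to culture. Its absolute value has no meaning on an array. Which cells carried either RNA cannot be told, so this whole-culture balance need not be that within neurons. Slc12a5 minus Slc12a2 was 0.49 log2 units higher in culture 2 than in culture 1, and 0.44 higher in culture 3 than in culture 1. The range of 0.49 equals a 1.40-fold difference in the ratio. It rested on culture 1: without that culture the range was 0.045. Slc12a5 gave 0.43 of the 0.49 and Slc12a2 moved by 0.06 the other way. Wnk3 minus Wnk1 differed likewise, by 0.37 between cultures 2 and 1. With 1 array per culture these differences have no test.

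Markers of neurons and glia also differed between the cultures. Culture 1 was the lowest for 7 of 7 GABA neuron markers and 6 of 8 neuron markers (43.7% of all genes above background). It was the highest for 6 of 6 astrocyte, 6 of 6 progenitor, 6 of 6 cycling and 6 of 7 oligodendrocyte lineage markers, where 32.4% of all genes above background were highest in culture 1. With each array centred on its median, 5 of the 6 cycling markers were highest there, and the other counts stood. The mean log2 level over the neuron markers was 11.36, 11.61 and 11.55 in cultures 1, 2 and 3, over the GABA neuron markers 9.62, 10.14 and 10.02, and over the astrocyte markers 9.84, 8.85 and 9.44. Over 5 measured markers of glutamatergic neurons it was 6.14, 6.79 and 6.30. Of these only Neurod2 (7.14 ± 0.16) was above background, and not with a margin of 1, so this mean rests mostly on genes that did not pass. Slc17a7, a vesicular glutamate transporter, read 6.11, 7.22 and 6.63 and did not pass, nor did Slc17a6, Neurod6 or Tbr1. The part of all these markers in the Slc12a5 difference was not tested.

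**Figure D3:**
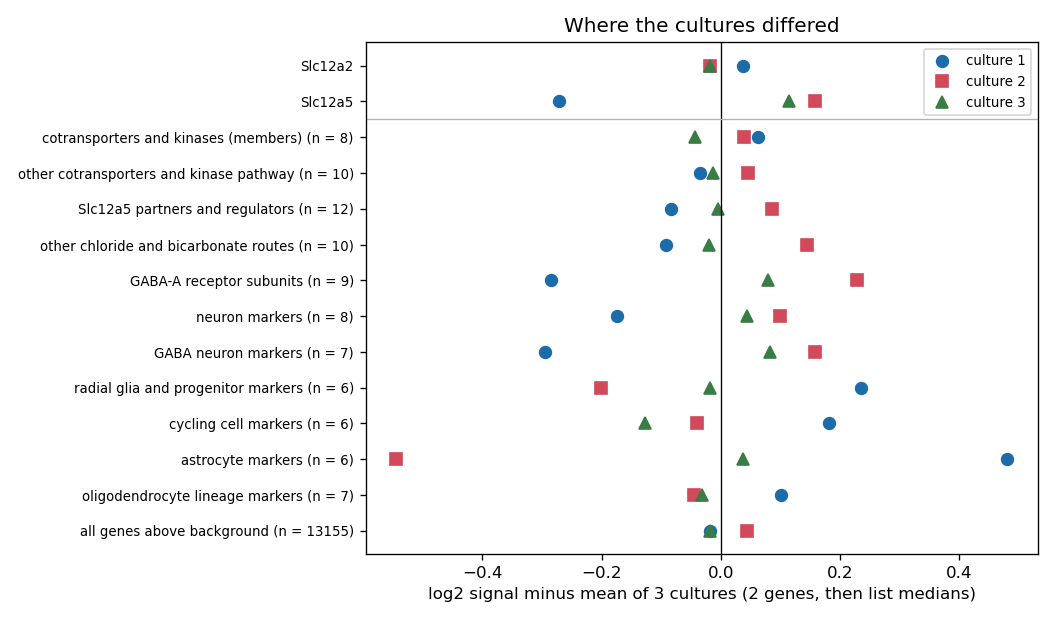
Log2 signal minus the mean of the 3 cultures (x axis) for Slc12a2 and Slc12a5, and below the grey line the median of that deviation over the members of each list above background (n in the row label). Circles, squares and triangles are cultures 1, 2 and 3. Slc12a5, the GABA-A receptor subunits and the GABA neuron markers were lowest in culture 1, and the astrocyte, progenitor and cycling markers were highest there.

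Genes whose 3 values ran most like those of Slc12a5, by the Euclidean distance of the deviations from each gene's mean, were Chl1, a neural cell adhesion molecule (11.34, 11.78 and 11.74), Mfsd13a (8.12, 8.54 and 8.50) and Esyt1, a protein that tethers the endoplasmic reticulum to the plasma membrane (7.19, 7.63 and 7.58). Within a distance of 0.1 log2 units lay 411 of 13154 genes above background. For Slc12a2 the nearest were Stt3a, Pnrc1 and 4930594M22Rik, and 3080 genes lay within that distance, so over 3 cultures these patterns are not specific.

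The rest of the family and of the kinase pathway had 10 of 14 measured genes above background, near the 63.4% of all genes, and all 10 also passed with a margin of 1. The carriers Slc12a1 (NKCC2) and Slc12a3 (NCC), known for salt uptake in the kidney, were not above background, at 5.00, 5.03 and 5.33 and at 5.93, 5.86 and 5.47. All of these 6 values lay below the line. Neither passed, nor did Slc12a8 (6.30 ± 0.08) or Wnk4 (6.08 ± 0.11), a kinase best known from kidney, though both did with the line at the 90th percentile, 5.82 (adjusted p = 0.000829 and 0.0123), where 72.5% of all genes and all 8 of the genes above passed.

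The downstream machinery was measured too. Oxsr1, the close relative of Stk39, read 9.55, 9.60 and 9.55, and Wnk2, a brain member, read 8.90, 9.16 and 8.97. Cab39 (9.68 ± 0.06) and Cab39l (8.94 ± 0.04), the MO25 scaffolds that activate both kinases, were above background. So were Klhl2 (9.05 ± 0.28), Klhl3 (7.77 ± 0.20) and Cul3 (11.29 ± 0.01), parts of the ubiquitin ligase that degrades Wnk kinases. Nedd4l, a ubiquitin ligase of ion transport, and Sgk1 and Sgk3, kinases of the same field, completed the 10. Klhl2 ranged over 0.57 log2 units, from 8.79 in culture 1 to 9.35 in culture 2.

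**Figure D4:**
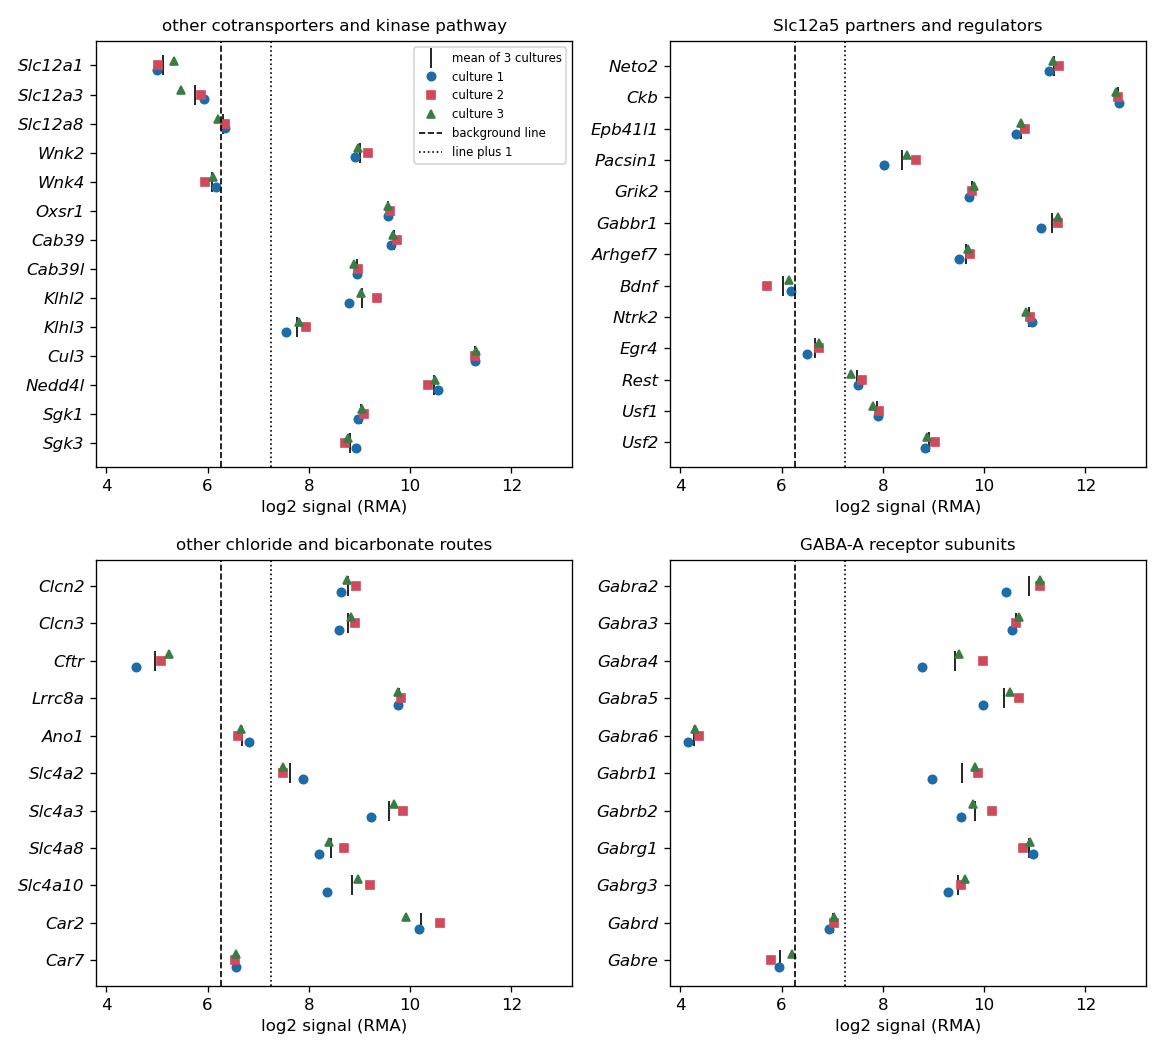
Log2 signal (x axis) of the measured genes of 4 lists (panels) in culture 1 (circles), 2 (squares) and 3 (triangles), with the mean (tick). The dashed line is background at 6.26 and the dotted line lies 1 log2 unit above it. Slc12a1, Slc12a3, Wnk4, Bdnf, Cftr, Gabra6 and Gabre lie left of the dashed line in all cultures, and most GABA-A receptor subunits have their circle at the left.

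Proteins known to bind the Slc12a5 protein or to act on its gene were above background in 12 of 13 measured cases (63.4% of all genes), 11 with a margin of 1 (47.6%). Neto2, an auxiliary protein of Slc12a5 and of kainate receptors, was at 11.38 ± 0.11, and Grik2, a kainate receptor subunit, at 9.76 ± 0.05. Ckb, the brain creatine kinase, was at 12.64 ± 0.03, and Epb41l1, a cytoskeletal linker, at 10.72 ± 0.09. Gabbr1, a subunit of the GABA-B receptor, read 11.12, 11.47 and 11.46, and Pacsin1, an endocytic adaptor, read 8.02, 8.66 and 8.47. Both were lowest in culture 1, as was Slc12a5. Of 12 partners above background 8 were lowest in culture 1, as were 43.7% of all genes above background.

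Bdnf, the growth factor known to regulate Slc12a5, was the member of this list not above background, at 6.19, 5.72 and 6.15, all below the line. Its receptor Ntrk2 was, at 10.95, 10.92 and 10.82.

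Other routes for chloride and bicarbonate, which also passes through GABA-A receptors, were above background in 10 of 11 genes (63.4% of all genes), 8 with a margin of 1 (47.6%). Slc4a10 and Slc4a8, sodium-driven bicarbonate transporters of neurons, read 8.36, 9.20 and 8.97 and 8.19, 8.70 and 8.39. Slc4a3, a chloride-bicarbonate exchanger of excitable cells, read 9.23, 9.86 and 9.68. These 3 carriers were lowest in culture 1 and highest in culture 2. Slc4a2, a widely expressed exchanger, was highest in culture 1 at 7.88, against 7.49 in both other cultures. Of the 10 genes of this list above background, 6 were lowest in culture 1 (43.7% of all genes above background). Culture 2 was the highest for 7 of them (6848 of all 13155 genes above background) and culture 1 for 2 (32.4%).

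Among the channels, Clcn2 (8.78 ± 0.15), Clcn3 (8.77 ± 0.17), which exchanges chloride for protons in vesicles, and Lrrc8a (9.77 ± 0.03), the essential subunit of the volume-regulated anion channel, were above background. Ano1, a calcium-activated channel, was at 6.69 ± 0.11 (adjusted p = 0.00238 in limma) and failed with a margin of 1, and Cftr (4.96 ± 0.34) was not above background. Car2, a carbonic anhydrase also of glia, read 10.17, 10.58 and 9.91. Car7, the carbonic anhydrase of mature neurons that supplies bicarbonate for GABA responses, was at 6.56 ± 0.01, above the line (adjusted p = 0.00286) but not with a margin of 1.

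The sodium-potassium pump makes the cation gradients that the carriers use. Its beta subunits Atp1b1 (12.37 ± 0.19), Atp1b2 (10.66 ± 0.19) and Atp1b3 (11.02 ± 0.21) were above background (63.4% of all genes). Atp1b1, the beta subunit of many neurons, was lowest in culture 1 (43.7% of all genes above background). Atp1b2, which is also glial, and Atp1b3 were highest there (32.4% of all genes above background). Atp1b3 read 11.15, 10.78 and 11.12 in cultures 1, 2 and 3. The 3 alpha subunits listed had no probe set of their own.

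The GABA-A receptor subunits, which form the channel whose polarity the carriers set, were above background in 9 of 11 measured genes (63.4% of all genes), and 8 of these 9 were lowest in culture 1 (43.7% of all genes above background). Gabra4 ranged most, with 8.78, 9.97 and 9.50, and Gabra2 read 10.44, 11.11 and 11.11, while Gabra6 (4.27 ± 0.11) and Gabre (5.98 ± 0.21) did not pass.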

How the data were processed

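RNA of 3 cultures was measured on 1-colour Affymetrix arrays. The values are the log2 signals the authors deposited, made with oligo and RMA per the submitters' processing notes. Their versions and settings, and the genome build, were not given in the sources used here. Array medians were 6.57, 6.52 and 6.56. Precision is limited by how few arrays there are. Nothing says how far the replicate cultures were independent beyond the label of biological replicates.

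Genes were named from the platform's probe table. Of 41345 probe sets, 23521 carried 1 symbol, 1814 several and 16010 none. The 1440 receptor probe sets gave the background line. limma 3.58.1 in R 4.3.3 tested the mean of each of 22081 other probe sets against it, with Benjamini-Hochberg adjustment over all of them. For a gene with several probe sets a single passing set sufficed, and the value printed belongs to the set of highest mean. The call was tested on simulated data. Alternatives numbered 14, and leaving out a culture was added for the Slc12a5 minus Slc12a2 range after the data were seen.

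The genes, the lists and the tests were chosen with earlier results of these data known. Named were the 8 genes, members of the 5 further pathway lists, leading markers and genes that complete a count, and the 3 genes nearest in pattern to Slc12a2 and to Slc12a5. Markers beyond the leading ones were named after their values were seen. Promoter sequences are from RefSeq (GRCm38.p6), and no coordinates are given for probe sets.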

Additional observations from a re-analysis of the deposited data

How the results depend on the processing

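Of the 8 cotransporter and kinase genes, 7 kept their call in all 14 alternatives, and Slc12a7 lost it in 3 (the line at the 99th percentile, the line from other families and a margin of 1). Over the 60 measured genes of the 6 pathway lists, 53 kept their call. Besides Slc12a7, Egr4, Ano1, Car7 and Gabrd lost theirs under the same 3 settings, which raise the line, and Egr4 also without culture 2, while Slc12a8 and Wnk4 gained it at the 90th percentile. None of the 6 pathway lists had its count of genes above background moved by over 1.5 times. The margin of 1 took the vascular markers above background from 7 to 0 and the microglial ones from 3 to 0. Of the 8 genes, those lowest in cultures 1, 2 and 3 numbered 3, 3 and 2, and became 3, 1 and 4 with median centring and 3, 4 and 1 with the mean of the probe sets of a gene. The median SD of the 8 genes lay between 0.03 and 0.13 log2 units when 1 culture was left out, the low value without culture 1. The range of Slc12a5 minus Slc12a2 over the cultures was 0.045 to 0.49 with 1 culture left out and 0.46 after a further quantile normalization. No paired analysis was possible because there is 1 group.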

Other observations

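Exact ties between cultures occur in the deposited values. Of 20751 genes tested, 1114 (5.37%) had the same value in at least 2 cultures and 88 (0.424%) in all 3, but none of the 8 cotransporter and kinase genes did. Oxsr1 is an example, with the same value in cultures 1 and 3.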
